A study of Homo sapiens with 9 samples.

Results

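TRAIL, the receptors that bind it, FAS, CASP8 and XAF1 were followed as a group of 8 genes across 3 lines derived from T47D, a human breast cancer cell line of luminal type. The members were all probes that carry 1 of the gene names TNFSF10, TNFRSF10A, TNFRSF10B, TNFRSF10C, TNFRSF10D, FAS, XAF1 and CASP8, which gave 14 of the 58201 probes on the array. Of these, 11 probes, standing for 7 of the 8 genes, cleared background on all 3 arrays of 1 or more lines and were tested, among 26172 probes and 20107 genes tested in all. RNA of each line was hybridized to 3 single-color arrays, 9 in all. T47D-VC1 carried the empty pTARGET expression vector, T47D-PA5 the same vector with an incomplete fragment of PTH-AS, a long noncoding RNA transcribed downstream of the parathyroid hormone gene, and T47D-PA6 the vector with full-length PTH-AS. All lines were stable transfectants selected with G418, and each fragment line was 1 selected line, so a difference between lines cannot be told apart from a difference between the lines that happened to be selected. Nothing in the labels states that the 3 arrays of a line came from separate cultures, so p-values measure only the spread between these arrays, which may be technical.

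TRAIL, encoded by TNFSF10, is a ligand of the tumor necrosis factor family that triggers apoptosis in many tumor cells. It binds the death receptors encoded by TNFRSF10A and TNFRSF10B, which recruit the adaptor FADD and the initiator caspase CASP8, and also the decoy receptors encoded by TNFRSF10C and TNFRSF10D, which lack a working death domain. FAS is the death receptor for another ligand and uses the same adaptor and caspase. XAF1 binds the caspase inhibitor XIAP and counters it, and both XAF1 and TNFSF10 are known targets of interferon.

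The arrays read TNFSF10 and XAF1 through the following tested probes, of which the first 30 of 60 bases are shown because the results turn on these genes. Both TNFSF10 probes match the minus strand of chromosome 3 (hg19), at chr3:172223866-172223925 and chr3:172224226-172224285. They start at bases 1325 and 965 of the transcript that the array design names. The XAF1 probes match the plus strand of chromosome 17 at chr17:6678819-6678878, which starts at base 3478 of the transcript that the array design names, and at chr17:6674143-6674202, which starts at base 930.
TNFSF10 A_23_P121253: gcaacaatccatctctcaagtagtgtatca
TNFSF10 A_33_P3226810: ctaactgacctggaaagaaaaagcaataac
XAF1 A_24_P557479: caaataaaccaacgggaaaaaagaaaggtt
XAF1 A_33_P3258346: aagcaccaagaagcaaaaacaaaaccttgg

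The promoters of these genes were also examined, because interferon acts on many of its targets through short promoter sequences. RefSeq windows (GRCh38.p14) of 300 bases, from 250 bases before to 50 bases after a start site, were searched on both strands. The letters searched were the core of the interferon-stimulated response element (ISRE), GAAANNGAAA, its fuller form GAAANNGAAACT, which contains the core, and the gamma-activated site (GAS), TTCNNNGAA. Of 35116 promoters in the table, 3.57% held the ISRE core, 0.273% its fuller form and 7.66% the GAS letters. The 250 bases before the start are shown for TNFSF10, minus strand of chr3:172523431-172523680, and for 1 of the 2 windows of XAF1, plus strand of chr17:6755796-6756045, with a match to the ISRE core, read on the opposite strand, in capitals.
TNFSF10: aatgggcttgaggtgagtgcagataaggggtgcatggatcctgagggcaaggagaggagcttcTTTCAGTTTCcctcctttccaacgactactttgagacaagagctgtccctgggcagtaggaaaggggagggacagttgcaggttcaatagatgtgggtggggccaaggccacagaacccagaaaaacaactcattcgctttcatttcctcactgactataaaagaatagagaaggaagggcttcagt
XAF1: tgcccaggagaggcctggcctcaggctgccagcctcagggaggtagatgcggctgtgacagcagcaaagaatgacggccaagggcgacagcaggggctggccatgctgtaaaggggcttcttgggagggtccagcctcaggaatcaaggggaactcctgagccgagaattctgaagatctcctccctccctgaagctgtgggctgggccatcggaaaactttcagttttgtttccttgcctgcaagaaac

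The TNFSF10 window held 1 ISRE core, beginning 187 bases before the start, and neither the fuller form nor GAS. Neither window of XAF1 held any of the 3 sets of letters, nor did the 3 windows of FAS. One of the 3 windows of CASP8 held an ISRE core 3 bases before its start and GAS letters 200 bases before it. These matches describe letters in a fixed window and show no binding.

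On each array 44% to 48% of all probes cleared background, and saturation was absent. All 9 markers of luminal breast epithelium were well above background on all 9 arrays. Of the markers of other cell types, COL1A1 of 5 fibroblast genes, 3 of the 4 immune cell genes on the array (PTPRC and CD14 among them) and 2 of 4 endothelial genes (VWF and CDH5) were well above background, while the defining genes CD3E, DCN, LUM, PECAM1 and KDR were not on any array. Their summed signal ran from 250.3 to 376.2 for fibroblast, 402.8 to 820.5 for immune and 48.34 to 76.73 for endothelial markers, and the CD14 signal of T47D-PA6 exceeded that of T47D-VC1, with a log2 difference of 1.80 (limma adjusted p = 0.00821). Whether these signals have a part in the results below was not tested. In bulk RNA, fewer cells with a transcript and less of it per cell cannot be told apart. Replicate 1 of every line stood apart. The median gap between replicates 2 and 3 over the tested genes was 0.0853 to 0.108 on the log2 scale, against 0.21 to 0.268 between replicate 1 and the other replicates of its line. Replicates 2 and 3 of T47D-VC1 and T47D-PA5 lay on slides 2 and 3, whereas both of T47D-PA6 lay on slide 3. Slide 2 thus held no T47D-PA6 array, and values of T47D-PA6 within slide 3 set 2 arrays against 1. Replicates 1 of all lines shared slide 1. Values without replicates 1 are therefore given beside the results that change. A fit to replicates 2 and 3 alone was chosen after seeing the data, and its p-values measure only the small gap between these replicates. It called 7469, 4309 and 7142 of 20107 genes in T47D-PA6 over T47D-VC1, T47D-PA5 over T47D-VC1 and T47D-PA6 over T47D-PA5. The fit to all arrays called 2017, 335 and 1952, so passing in the smaller fit was common over all genes.

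XAF1 was the only member past the threshold, and its T47D-PA6 signal exceeded that of both other lines. It was tested only through T47D-PA6, the line in which it is high and the only one where its probes cleared background on all 3 arrays, so its call and the counts of members that include it are descriptions and no support. Every T47D-PA6 array lay above every T47D-VC1 array for TNFSF10, TNFRSF10A, TNFRSF10B, TNFRSF10C and XAF1, 5 of 7 tested members, compared with 13.1% of all genes tested. With a limma adjusted p-value below 0.05, T47D-PA6 differed from T47D-VC1 in 1 of 7 members, against a background of 10% of all genes. By the fold limits of the methods, a ratio above 2 or below 0.6, 2 of 7 members passed (XAF1 and TNFRSF10A), against 7.64%. In T47D-PA5 over T47D-VC1, limma called 0 of 7 members, against 1.67% of all genes. Without adjustment, 2 members, XAF1 and TNFRSF10C, had a limma p below 0.05 in that comparison, against 15.6% of all genes. The unpaired t test of the methods called 0 there with or without adjustment. The methods name this test for comparing datasets and one-way ANOVA for multiple groups, and define changes on the arrays by the fold limits. The unadjusted limma counts were 3 members in T47D-PA6 over T47D-VC1, against 26.6% of genes, and 2 in T47D-PA6 over T47D-PA5, against 24.9%. XAF1 alone passed the fold limits in T47D-PA5 over T47D-VC1, against 3.92% of genes, a ratio to T47D-VC1 signals below background, and TNFRSF10B alone had every T47D-PA5 array above every T47D-VC1 array, against 11.2%. In T47D-PA6 over T47D-PA5, limma called 1 of 7 members, against 9.71%, 2 passed the fold limits (XAF1 and TNFRSF10A), against 8%, and 3 did not overlap (TNFSF10, TNFRSF10A and XAF1), against 14.3%. The median log2 difference over the 7 members was 0.49 in T47D-PA6 over T47D-VC1 and 0.15 in T47D-PA5 over T47D-VC1, beside -0.03 over all genes in both. These comparisons share the T47D-VC1 arrays.

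**Figure D1:**
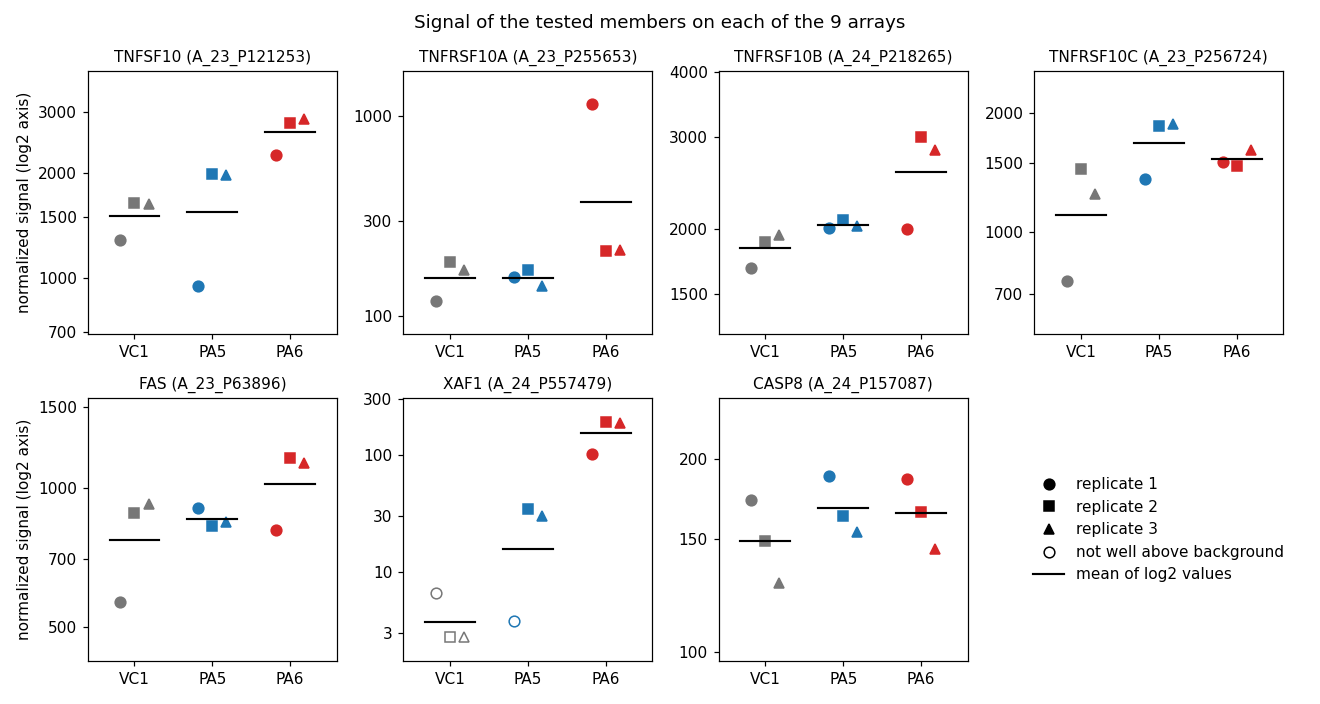
Normalized signal, in arbitrary units on a log2 axis, of the 7 tested members on the 9 arrays, by line, with the probe read for each gene. Symbols mark the replicate, open symbols a signal not well above background, and bars the mean of the log2 values of 3 arrays. The XAF1 signals of T47D-PA6 lie between 101.3 and 188.8, above all other arrays, and the TNFRSF10A signal of T47D-PA6 replicate 1, 1147, stands apart from the other 8 arrays.

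The signals of the ligand gene TNFSF10 were highest on the T47D-PA6 arrays. Its brighter probe gave normalized signals of 1287, 1641 and 1634 on the T47D-VC1 arrays (replicates 1, 2 and 3), 949.3, 1996 and 1972 on the T47D-PA5 arrays and 2259, 2792 and 2864 on the T47D-PA6 arrays. All T47D-PA6 arrays were thus above all others, whereas T47D-PA5 replicate 1 was the lowest array and the other T47D-PA5 arrays lay above T47D-VC1. The log2 difference of T47D-PA6 over T47D-VC1 was 0.80 ± 0.28 (SE, 3 arrays a line), a ratio of 1.74, with a 95% interval of 1.12 to 2.70 and a limma adjusted p of 0.109, which did not pass the threshold. Against T47D-PA5 the log2 difference was 0.76 ± 0.28 (limma adjusted p = 0.132), and T47D-PA5 over T47D-VC1 was 0.04 ± 0.28 (limma adjusted p = 0.966).

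The call on TNFSF10 depended on the fit. In T47D-PA6 over T47D-VC1 it passed the threshold in 5 of 23 alternatives and not in 18, among them the random replicate block (limma adjusted p = 0.0579) and normexp (limma adjusted p = 0.0699), with limma adjusted p-values of up to 0.261. Its difference of T47D-PA6 over T47D-VC1 was 0.81 within slide 1 and 0.79 within slide 3, and it passed the threshold with slide as a block (limma adjusted p = 0.0391) and with the replicate block (limma adjusted p = 0.0342). Without T47D-PA5 replicate 1, the limma adjusted p was 0.015, and in a fit to both lines alone it was 0.0398. With replicates 2 and 3 alone, the fit chosen after seeing the data, limma called TNFSF10 in all 3 comparisons. The differences were then 0.79 for T47D-PA6 over T47D-VC1 (limma adjusted p = 0.000948), 0.51 for T47D-PA6 over T47D-PA5 (limma adjusted p = 0.00277) and 0.28 for T47D-PA5 over T47D-VC1 (limma adjusted p = 0.0278). Within slide 1, T47D-PA5 was below T47D-VC1 by a log2 difference of -0.44.

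A second TNFSF10 probe, which lies further upstream in the transcript, showed the same order of lines. Its signals were 618.7, 742.4 and 685.8 in T47D-VC1, 437.5, 907.2 and 886 in T47D-PA5 and 996.2, 1238 and 1147 in T47D-PA6, and its T47D-PA6 over T47D-VC1 difference was 0.72 ± 0.26 (limma adjusted p = 0.117 over all probes). Over the 9 arrays the log2 signals of both probes correlated at 0.992. The remaining probe, A_21_P0000113, designed to another transcript of the gene, cleared background on none of the 9 arrays.

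The death receptor gene TNFRSF10A had 1 array far above the other 8. Its signals were 118.7, 186.6 and 170.8 in T47D-VC1, 157.6, 170.2 and 141.6 in T47D-PA5 and 1147, 210.5 and 213.1 in T47D-PA6. Replicates 2 and 3 of T47D-PA6 also lay above all T47D-VC1 and T47D-PA5 arrays. The highest value was that of T47D-PA6 replicate 1, which was 2.43 above the next T47D-PA6 array on the log2 scale. Of 20107 tested genes, 49 had T47D-PA6 replicate 1 at least as far above both other replicates. The difference of T47D-PA6 over T47D-VC1 was 1.26 ± 0.58 (limma adjusted p = 0.213) and was 0.44 without T47D-PA6 replicate 1 (limma adjusted p = 0.176). It was 3.27 within slide 1 and 0.31 within slide 3. Against T47D-PA5 it was 1.25 ± 0.58 (limma adjusted p = 0.226), and 0.45 with replicates 2 and 3 alone, where it passed the threshold (limma adjusted p = 0.0295). T47D-PA5 over T47D-VC1 was 0.00 ± 0.58, with a 95% interval of -1.33 to 1.33. The passage past the 2-fold limit thus rested on 1 array.

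TNFRSF10B, the other TRAIL death receptor gene, was measured at 1678, 1886 and 1945 in T47D-VC1, 2005, 2076 and 2026 in T47D-PA5 and 2000, 3011 and 2842 in T47D-PA6. Replicates 2 and 3 of T47D-PA6 were the highest arrays, and its replicate 1 lay just below the T47D-PA5 arrays. The difference of T47D-PA6 over T47D-VC1 was 0.49 ± 0.16 (ratio 1.41, limma adjusted p = 0.0839), and T47D-PA5 over T47D-VC1 was 0.15 ± 0.16 (limma adjusted p = 0.712). Although every T47D-PA5 array lay above every T47D-VC1 array, the interval of that difference, -0.20 to 0.51, included 0. Without T47D-PA6 replicate 1, TNFRSF10B passed the threshold against T47D-VC1 (log2 difference 0.67, limma adjusted p = 0.00671) and against T47D-PA5 (0.52, limma adjusted p = 0.0149). With replicates 2 and 3 alone the differences were 0.61 and 0.51 (limma adjusted p = 0.00258 and 0.00399), and within slide 1 alone T47D-PA6 over T47D-VC1 was 0.25.

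The decoy receptor gene TNFRSF10C gave 752.8, 1447 and 1252 in T47D-VC1, 1369, 1860 and 1884 in T47D-PA5 and 1510, 1473 and 1612 in T47D-PA6. The lowest array was T47D-VC1 replicate 1, and the highest were T47D-PA5 replicates 2 and 3, so that this gene was the only tested member besides CASP8 with a higher mean in T47D-PA5 than in T47D-PA6. T47D-PA5 over T47D-VC1 was 0.60 ± 0.24 (ratio 1.52, limma adjusted p = 0.264), T47D-PA6 over T47D-VC1 was 0.47 ± 0.24 (limma adjusted p = 0.254) and T47D-PA6 over T47D-PA5 was -0.14 ± 0.24, with an interval of -0.68 to 0.40. Without T47D-VC1 replicate 1, T47D-PA6 over T47D-VC1 was 0.19 and T47D-PA5 over T47D-VC1 was 0.33, and with replicates 2 and 3 alone T47D-PA6 over T47D-VC1 was 0.20. With replicates 2 and 3 alone, T47D-PA5 over T47D-VC1 was 0.48 and passed the threshold (limma adjusted p = 0.0288). The second decoy receptor gene, TNFRSF10D, did not clear background on any array, with signals of 2.573 to 2.692, and was not tested. All 4 TRAIL receptor genes lie on chromosome 8, and 1 probe reads each of them.

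FAS was read by 3 probes, of which 2 overlap in sequence. The brightest gave 567.2, 881.1 and 922.1 in T47D-VC1, 905.4, 827.6 and 842.5 in T47D-PA5 and 810, 1162 and 1133 in T47D-PA6. Replicate 1 was the lowest array of T47D-VC1 and of T47D-PA6, and the lines overlapped. T47D-PA6 over T47D-VC1 was 0.40 ± 0.21 (limma adjusted p = 0.262), and T47D-PA5 over T47D-VC1 was 0.15 ± 0.21 (limma adjusted p = 0.795). Without T47D-VC1 replicate 1 these were 0.18 and -0.07 (limma adjusted p = 0.511 and 0.858). The other probes gave 0.30 ± 0.23 and 0.31 ± 0.27 for T47D-PA6 over T47D-VC1, and the 3 probes correlated at 0.939 to 0.97 over the arrays. With replicates 2 and 3 alone FAS passed the threshold in T47D-PA6 over T47D-VC1 (0.35, limma adjusted p = 0.0102) and in T47D-PA6 over T47D-PA5 (0.46, limma adjusted p = 0.00465), whereas within slide 1 T47D-PA6 was below T47D-PA5 by a log2 difference of -0.16.

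CASP8, the initiator caspase downstream of these receptors, had the smallest differences from T47D-VC1 among the tested members in T47D-PA6. Its signals were 172.5, 149.1 and 128.1 in T47D-VC1, 187.7, 162.8 and 153.9 in T47D-PA5 and 186.1, 165.1 and 144.8 in T47D-PA6. Replicate 1 was the highest array in each line, and the lines overlapped. T47D-PA6 over T47D-VC1 was 0.14 ± 0.15, with a 95% interval of -0.19 to 0.48 (limma adjusted p = 0.591), so that a rise of more than 1.4 times lay outside the interval. T47D-PA5 over T47D-VC1 was 0.17 ± 0.15 (limma adjusted p = 0.654). A second CASP8 probe, A_24_P148499, designed to another transcript, was well above background only on T47D-PA6 replicate 3 and was not tested.

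XAF1 had the largest difference of the members. Its brighter probe gave 6.601, 2.772 and 2.806 on the T47D-VC1 arrays and cleared background on none of them. It gave 3.847, 34.26 and 29.92 in T47D-PA5, where replicates 2 and 3 were well above background and replicate 1 was not, and 101.3, 188.8 and 183.9 in T47D-PA6, well above background on all 3 arrays. The lowest T47D-PA6 array lay above the highest of the other 6. The mean signal was 152.1 in T47D-PA6 and 3.717 in T47D-VC1. Since the latter is below background, the fold is given as a bound. Each T47D-VC1 array entered with the probe's own signal or, if higher, the dimmest signal that cleared background there. With these values T47D-PA6 exceeded T47D-VC1 by at least 12.2-fold. That fold was not tested, and the limma adjusted p of 0.00571 belongs to the fit to the signals as measured. A probe brighter than the dimmest cleared signal can still fail to clear background, so the bound holds for this choice only. The size depended on the background correction, and with normexp, which adds an offset of 50 to every signal, the log2 difference was 1.76 (limma adjusted p = 0.000628), below that bound, and 1.37 over T47D-PA5 (limma adjusted p = 0.00234). The other probe gave 2.915, 2.942 and 2.971 in T47D-VC1, 2.905, 15.79 and 8.56 in T47D-PA5 and 45.96, 83.95 and 66.4 in T47D-PA6. It cleared background on no T47D-VC1 array and, in T47D-PA5, on replicate 2 only. By the same rule T47D-PA6 exceeded T47D-VC1 by at least 5.09-fold for this probe. The fit to its measured signals gave a limma adjusted p of 0.00224 over all probes. The log2 signals of the XAF1 probes correlated at 0.978 over the 9 arrays, a value that includes the arrays on which they were below background.

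The mean XAF1 signal of T47D-PA5 lay between those of the other lines, but not all of its arrays cleared background. The fitted difference of T47D-PA6 over T47D-PA5 was 3.27 ± 0.79 (limma adjusted p = 0.0362), but T47D-PA5 was measured above background on 2 of 3 arrays only and the value rests in part on the dim replicate 1. With that array at the dimmest signal that cleared background on it, 15.17, the mean of T47D-PA5 was 24.96 and T47D-PA6 was 6.09-fold above it, and without that array the fitted difference was 2.25 (limma adjusted p = 0.0243). This call was lost, at an unaltered or similar difference, under 9 of 22 alternatives; these were no filter on dim probes (limma adjusted p = 0.116), slide as a block (limma adjusted p = 0.0648), a fit to both lines alone (limma adjusted p = 0.0715), the unpaired test of the methods and the removal of T47D-VC1 replicate 2 or 3, T47D-PA5 replicate 3 or T47D-PA6 replicate 2 or 3 (limma adjusted p = 0.0564 to 0.122). For the second probe the limma adjusted p was 0.00941, although it cleared background on 1 T47D-PA5 array only. With the other T47D-PA5 arrays at the dimmest signal that cleared background on them, T47D-PA6 was 4.54-fold above T47D-PA5 for that probe. T47D-PA5 over T47D-VC1 was 2.09 ± 0.79 (limma adjusted p = 0.245), a value that rests on T47D-VC1 signals below background. With each array below background at the dimmest signal that cleared background on it, T47D-PA5 was 2-fold above T47D-VC1 for the brighter probe. For the second probe it was 1.12-fold above. The fitted difference of the brighter probe was 3.11 without T47D-PA5 replicate 1 (limma adjusted p = 0.0172) and 3.52 with replicates 2 and 3 alone (limma adjusted p = 0.000178). Both again rest on T47D-VC1 signals below background. By slide the T47D-PA5 over T47D-VC1 difference was -0.78, 3.63 and 3.41 on slides 1, 2 and 3, and on slide 1 neither line was well above background. The T47D-PA6 over T47D-VC1 difference was 3.94 on slide 1 and 6.05 on slide 3, again against signals below background. It passed the threshold under all 22 alternatives in which XAF1 was tested. All of these but the fit without a filter tested XAF1 only through T47D-PA6, so this count is no support.

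**Figure D2:**
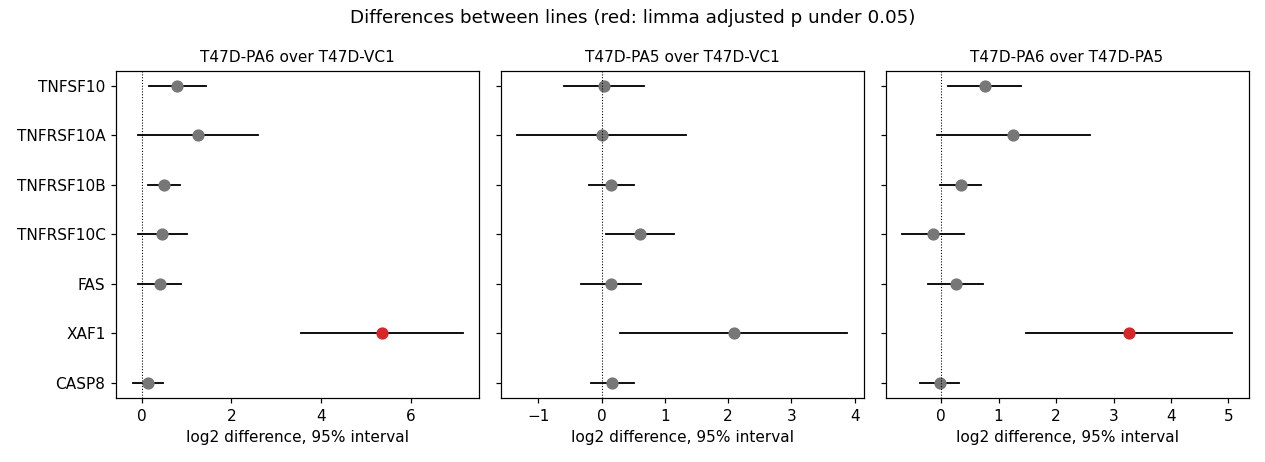
Log2 difference (points) with its 95% interval (lines) from limma for the 7 tested members in the 3 comparisons, each panel with its own horizontal scale, with the dotted line at 0. The XAF1 differences from T47D-VC1 are fitted to signals below background in that line. Red points passed an adjusted p of 0.05. XAF1 passed in T47D-PA6 over T47D-VC1 and in T47D-PA6 over T47D-PA5, and no member passed in T47D-PA5 over T47D-VC1.

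XAF1 and TNFSF10 were set beside 8 interferon-stimulated genes, which were ISG15, MX1, OAS1, OAS2, IFIT1, IFIT3, IFI6 and IFI44. Most of these were singled out by the study on these same arrays, so their direction is no independent evidence. All 8 rose in T47D-PA6 over T47D-VC1, with a median log2 difference of 6.11. IFI44, below background on all T47D-VC1 arrays, was higher by at least 137-fold, and the differences of the others were 4.14 to 7.14. The 7.14 is that of OAS1, which cleared background on 1 T47D-VC1 array only, so it is a fitted value. Of the 8, 6 rose in T47D-PA5, where the median was 3.26, or 3.08 with IFI44 at its bound. In T47D-PA6 over T47D-PA5 limma called all 8 as higher. Relative to the T47D-VC1 mean, the brighter XAF1 probe ran from 0.05 on T47D-PA5 replicate 1 to 5.67 on T47D-PA6 replicate 2, and the mean of these genes, lowest of the fragment lines on the same T47D-PA5 array, from 2.05 to 6.55, whereas TNFSF10 ran from -0.67 to 0.92. The T47D-VC1 mean of XAF1 is below background, so its values on this scale are positions on the plot and not measured sizes. Over the 9 arrays, which fall into 3 lines, the log2 signal correlated with that mean at 0.969 for XAF1, 0.793 for TNFRSF10B, 0.77 for TNFSF10, 0.565 for TNFRSF10C, 0.561 for FAS, 0.483 for TNFRSF10A and 0.261 for CASP8. The correlation of XAF1 includes arrays on which it was below background. Of the 7 interferon-stimulated genes with a promoter window, all but OAS1 held the fuller ISRE form, which the windows of TNFSF10 and XAF1 lacked.

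**Figure D3:**
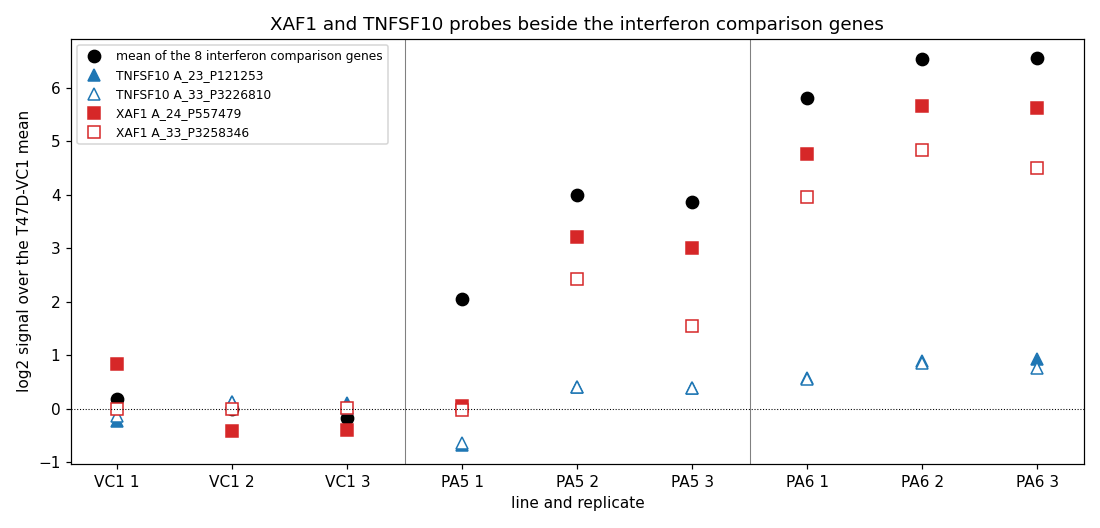
Log2 signal over the mean of the T47D-VC1 arrays, on each of the 9 arrays, for both tested probes of XAF1 (red squares) and TNFSF10 (blue triangles) and for the mean of the 8 interferon-stimulated genes (black circles). XAF1 is drawn against T47D-VC1 signals below background, so its heights are not measured sizes, and on T47D-PA5 replicate 1 it was below background as in T47D-VC1. The interferon-stimulated genes reached 6.55 in T47D-PA6, whereas TNFSF10 stayed below 1.

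The genes whose log2 signal was most like that of XAF1 over the 9 arrays, by Pearson correlation over 20090 genes, were STAT2, NEK10, CARINH, OASL and CFB (0.987 to 0.995). For TNFSF10 they were ASGR1, PPP1R1B, CD72, GMPR and LINGO1 (0.97 to 0.989). The nearest genes were LINC00857, MTSS2 and PDE8B for TNFRSF10B, RAB8A, USP49 and SNORD45B for TNFRSF10A, LIPH, CYRIA and S1PR2 for TNFRSF10C, PCMT1, XLOC_l2_012323 and HSPA4 for FAS, and LINC02817 and lnc-KLF7-1, among the nearest, for CASP8. With so many genes and 9 arrays in 3 lines, correlations this high are a description only. Among the members, XAF1 was most like TNFSF10 (0.852) and TNFRSF10B most like FAS (0.864). All correlations of XAF1 include arrays on which it was below background.

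Other genes of the extrinsic pathway were taken from a list of 47 ligands, receptors, adaptors, caspases and inhibitors, of which 42 were tested. In the order T47D-PA6 over T47D-VC1, T47D-PA5 over T47D-VC1 and T47D-PA6 over T47D-PA5, 7.14%, 2.38% and 16.7% of them passed the test, against 10%, 1.67% and 9.71% of all genes. In T47D-PA6 over T47D-VC1, 2 rose, 1 fell and 39 did not pass, with a median of 0.04. The receptor gene TNFRSF1A, which encodes a tumor necrosis factor receptor, rose by 0.54 ± 0.09 (limma adjusted p = 0.0113), while PARP1, a DNA repair enzyme cleaved by executioner caspases, fell, with a log2 difference of -0.62 ± 0.14 (limma adjusted p = 0.0286). In T47D-PA5 over T47D-VC1, 0 rose and 1 fell. This was RIPK3, a kinase of necroptosis, which cleared background on no T47D-PA5 array. With those arrays at the dimmest signal that cleared background on them, it was lower by at least 6.0-fold against T47D-VC1. That fold was not tested, and the limma adjusted p of 0.00249 belongs to the fit to its measured signals. RIPK3 was tested only through T47D-VC1 and T47D-PA6, the lines in which it is high. Its calls, and the counts and shares of the list that include it, are therefore descriptions and no support. In T47D-PA6 over T47D-VC1 its log2 difference was -0.55 ± 0.42 (limma adjusted p = 0.455). In T47D-PA6 over T47D-PA5, 3 of the list were higher and 4 lower, with a median of 0.10. RIPK3 (at least 4.10-fold) and TNFRSF1A (0.46) were higher in T47D-PA6, and PARP1 was lower (-1.03). The limma adjusted p-values were 0.00232 to 0.0208, which for RIPK3 belongs to the fit to its measured signals and not to the bound. None of the 7 inhibitor of apoptosis genes, XIAP among them, passed in either comparison with T47D-VC1 in the fit to all arrays. In T47D-PA6 over T47D-PA5, 1 of the 7 passed and was lower.

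**Figure D4:**
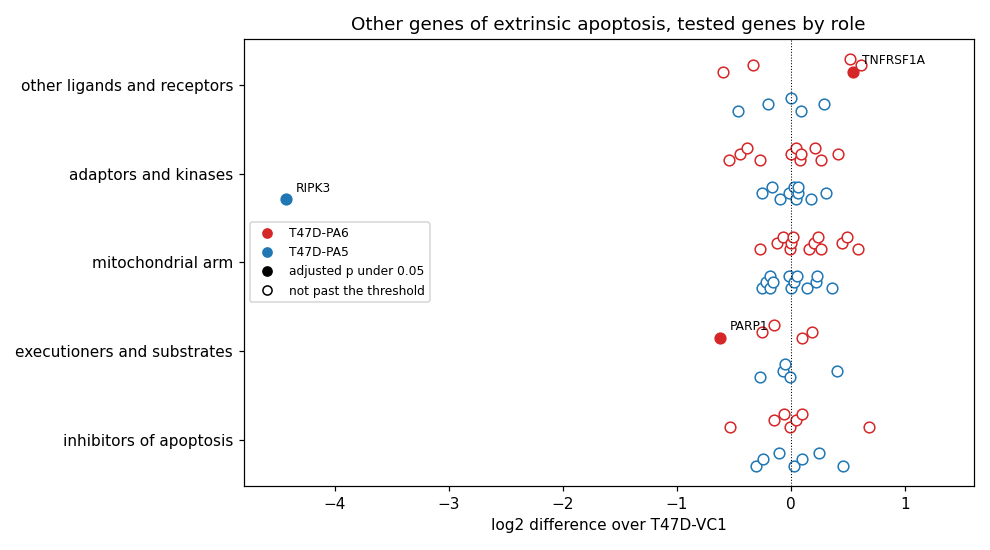
Log2 difference over T47D-VC1 of the tested genes of the extrinsic pathway list, without 1 gene that is not reported, by role, in T47D-PA6 (red, upper band of each role) and T47D-PA5 (blue, lower band). Filled points passed a limma adjusted p of 0.05 and are named, and the vertical spread within a band only separates points. Most genes lie near 0, and RIPK3 in T47D-PA5, drawn at its fitted value of -4.43, stands apart.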

How the data were processed

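Total RNA of 3 T47D lines was amplified and labeled in 1 color from a low input and hybridized to 9 SurePrint G3 Human v3 arrays. The authors deposited, per array, the intensity of each spot from Feature Extraction (10.7.1.1 in the file headers, 9.5.1.1 per the labels), background-subtracted and not normalized between arrays, and intensities quantile-normalized between arrays. Here outlier spots (46 to 117 an array, 0 of members) were left out, spots of a probe averaged as log2 intensity, and arrays quantile-normalized as in the methods. A probe was tested when well above background on all arrays of a line, a mark that each array's own file gives, and a gene was read from its brightest tested probe. All lines were fitted together in R 4.3.3 with limma 3.58.1 (6 residual degrees of freedom), with Benjamini-Hochberg adjustment over the genes of a comparison and a threshold of 0.05. The precision is limited by the number of arrays, 3 a line. An exact permutation test of 3 against 3 arrays cannot go below 0.1 and was not used. The fit was run on simulated data with independent noise on each array. No slide or replicate effect was simulated, so that run cannot show how the fit behaves under such effects.

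Gene symbols were updated from a RefSeq table, by symbol (31127 probes), accession (3343) or synonym (496), and 23235 probes kept their names. The named genes were all members, pathway-list genes past the threshold in a comparison with T47D-VC1, the 8 interferon-stimulated genes as a group and the nearest genes by correlation, and some of these are not reported here. The members and lists were chosen with earlier results of these data known. Alternatives were a 75th percentile shift, normexp (offset 50) before quantile normalization, the authors' table, other filters, slide and replicate number as blocks, each array left out, other fits and probe rules, and the unpaired test of the methods. A fit to replicates 2 and 3 alone was chosen after seeing the data.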

Additional observations from a re-analysis of the deposited data

Results flagged for a closer look

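The XAF1 signal differed between the fragment lines. T47D-PA6 was above T47D-PA5 by 3.27 on the log2 scale, which is also the difference between their changes over T47D-VC1, and limma's test of that difference gave an adjusted p of 0.0362. The probe was not well above background on T47D-PA5 replicate 1 or on any T47D-VC1 array, so 3.27 is a fitted value and not a measured size. With that T47D-PA5 array at the dimmest signal that cleared background on it, T47D-PA6 was 6.09-fold above T47D-PA5. The CASP8 probe A_24_P148499, outside the tested probes, was well above background on T47D-PA6 replicate 3, with a signal of 16.02 against 9.039 to 12.55 in T47D-VC1, where it cleared background on none. The lower of the other T47D-PA6 arrays read 4.785, below background.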

How the results depend on the processing

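T47D-PA6 over T47D-VC1 for XAF1 kept its direction and passed under all 22 alternatives in which XAF1 was tested. All of these but the fit without a filter tested it only through T47D-PA6, where it is high, so this is no support. Its size did not hold, with log2 differences of 1.76 under normexp and 4.89 to 6.06 under the others. In T47D-PA6 over T47D-PA5 it was 1.37 under normexp, 2.25 without T47D-PA5 replicate 1 and 2.54 with replicates 2 and 3 alone. XAF1 dropped out, so that 0 members were called in T47D-PA6 over T47D-VC1 and 0 in T47D-PA6 over T47D-PA5, when a probe had to be well above background on all 9 arrays, which also left 0 of the pathway list in T47D-PA5 over T47D-VC1. No call reversed. Uncalled differences changed sign in 3 of 23 alternatives for TNFSF10, 5 for TNFRSF10A and 2 for FAS in T47D-PA5 over T47D-VC1, and in 3 for CASP8 in T47D-PA6 over T47D-PA5. The cause was not tested.

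In the counts that follow, the comparisons run in the order T47D-PA6 over T47D-VC1, T47D-PA5 over T47D-VC1 and T47D-PA6 over T47D-PA5, where the fit of the report called 2017, 335 and 1952 genes, 3, 1 and 7 of the pathway list and 1, 0 and 1 members. Without a filter 1285, 198 and 1262 genes were called, and 0 members in the last. The unpaired test of the methods with adjustment gave 432, 39 and 790 genes, 0 of the pathway list in the first and in the second, and 0 members in the last. Without adjustment it gave 4447, 3011 and 4858 genes and 2, 0 and 1 members. With replicates 2 and 3 alone, chosen after seeing the data, the counts were 7469, 4309 and 7142 genes, 18, 7 and 23 of the pathway list and 4, 3 and 5 members. A fit to the compared lines alone gave 1146 genes, 1 of the pathway list and 2 members in the first comparison and 0 members in the last. Normexp correction gave 6 and 2 of the pathway list in the first and second. An intensity trend gave 5 in the first, and the mean over probes gave 5. Counted by adjusted p, alone or with the fold limits, in place of the fold limits, the members were 1, 0 and 1.

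The replicate numbers were not taken to pair the arrays. Deviations of same-numbered arrays of different lines correlated at 0.0992 to 0.338, and those of other numbers at -0.315 to 0.261. The closest array of another line had the same number for 4 of 9 arrays. The replicate 1 arrays, which share slide 1, correlated with each other at 0.21 to 0.338, and the fit of the report has no term for slide. With the replicate block 2 members were called in T47D-PA6 over T47D-VC1 and 2 in T47D-PA6 over T47D-PA5 (TNFSF10 and XAF1). Over all genes the calls also rose, to 2617 and 2416. With the number as a random block, correlation 0.165, there were 2 members (TNFRSF10B and XAF1), 5 of the pathway list and 2903 genes in the first comparison. In the second there were 608 genes and 2 of the pathway list. With slide as a block there were 2 members (TNFSF10 and XAF1) and 2290 genes in the first comparison. In the last there were 1956 genes and 1 member, which was TNFSF10 in place of XAF1, and in the second 608 genes and 2 of the pathway list.

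With each array left out in turn, 1 to 2, 0 to 1 and 0 to 2 members were called, 702 to 2768, 99 to 621 and 726 to 2949 genes, and 0 to 8, 1 to 2 and 2 to 11 of the pathway list. The fewest genes were called without T47D-PA6 replicate 3, without T47D-PA5 replicate 3 and without T47D-PA6 replicate 2 or 3, in that order of the comparisons, and the most without T47D-PA6 replicate 1 in all comparisons.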
